A study of Homo sapiens with 6 samples.

Results

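The lipid droplet coat and triglyceride genes are 10 genes, PLIN1, PLIN2, PLIN3, PLIN4, PLIN5, DGAT1, DGAT2, PNPLA2, ABHD5 and HILPDA, taken by symbol from the 36601 genes of the deposited matrices. PLIN5 was chosen by its measured rise under TSA, among the strongest in these data, so its values are a description and carry no test. The other 9 were listed for what their products do at the droplet. All 10 had unique molecular identifiers (UMIs, tags that mark single captured RNA molecules) in all 6 libraries, and 9 passed the low-count filter of the test. PLIN1 did not pass it and has no test.

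RNA of single cells was captured with Seq-Well S3, in which a cell shares a well with a bead that carries its barcode. All 6 libraries came from SK-N-BE(2)-C, a human neuroblastoma cell line, with 2 given the solvent DMSO, 2 given TSA and 2 given E6R. TSA is the usual abbreviation of trichostatin A, which blocks the catalytic site of histone deacetylases (HDACs), and the title of the series describes an inhibitor of HDAC complexes that works without blocking the enzyme. The sources used here do not give doses, treatment times or the structure of E6R, nor whether replicates were separate cultures, so p-values measure only the spread between these libraries. The deposited file of TSA replicate 2 alone carries a mark in its name whose meaning the labels do not give, and values without that library are given where they change a call.

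A lipid droplet is a store of neutral lipid, mainly triglyceride and sterol ester, wrapped in a phospholipid monolayer that carries proteins. Diacylglycerol acyltransferases make the last step of triglyceride synthesis, perilipins coat the droplet and control access to it, and the lipase PNPLA2 with its coactivator ABHD5 starts breakdown. Most cell types coat their droplets with PLIN2 and PLIN3, whereas PLIN1 belongs to adipocytes and PLIN5 to tissues that oxidise much fatty acid, such as heart and liver.

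Barcodes with at least 500 genes and at most 20% mitochondrial UMIs were taken as cells, which gave 17589 cells, between 1861 and 3946 per library. Sums over cells held 4206366 to 26180262 UMIs per library, the 2 DMSO sums being the smallest, and median depths were 1054 to 1880 UMIs per cell. Mitochondrial genes took 5.83% and 6.20% of the UMIs under DMSO, 6.08% and 9.71% under TSA, and 1.55% and 1.51% under E6R. The 10 neuroblastoma markers were all detected and together reached 2731 to 5191 CPM (UMI counts scaled to a common library size), and 3 of them fell under TSA by the edgeR test described below. The 8 adipocyte markers together reached at most 3.06 CPM in any library. The adipokine ADIPOQ had 1 UMI in each DMSO and TSA library and 0 in the E6R libraries, where a count of 0 allows up to 0.190 and 0.115 CPM. DMSO replicate 2 stood apart with 36.0 CPM of 7 hepatocyte markers against 0.871 to 1.60 CPM in the other libraries, and the part of this in any result was not tested. The 6 fibroblast markers together ranged from 29.5 to 320 CPM, with wide gaps inside each group, and their part was not tested. The 6 macrophage markers together stood at 8.96 and 5.57 CPM under TSA and at 0.640 to 2.46 CPM elsewhere. Of these, CSF1R stood at 6.91 and 5.05 CPM under TSA and at 0.0752 to 0.632 CPM elsewhere. It passed the low-count filter through the TSA libraries, so it is given without a test. LYZ and AIF1 had 0 to 4 UMIs per library, and the part of these markers in the TSA results was not tested. In all, 299 cells (1.7%) had a barcode that was also found in another library, with 11 to 58 shared barcodes per pair of libraries, and leaving them out changed no member's call.

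Promoter windows of 250 bases before to 50 bases after the start were taken from RefSeq on GRCh38.p14, where 7 of the 10 members matched, and DGAT1, DGAT2 and HILPDA had no entry. The 5 windows below are shown because PLIN5, PLIN3 and PNPLA2 were higher under TSA, PLIN4 is the perilipin next to PLIN5, and PLIN2 went the other way. They are written 5′ to 3′ on the gene's strand, and capitals mark GGGCGG (the GC box), CCAAT (the CCAAT box) and TATAA on either strand, and in PLIN2 also ACGTG (the core of the hypoxia response element). The windows are chr19:4535175-4535474 for PLIN5, chr19:4518437-4518736 for PLIN4, chr19:4867618-4867917 for PLIN3, chr11:818664-818963 for PNPLA2 and chr9:19127443-19127742 for PLIN2, the PNPLA2 window being on the plus strand and the others on the minus strand.
PLIN5: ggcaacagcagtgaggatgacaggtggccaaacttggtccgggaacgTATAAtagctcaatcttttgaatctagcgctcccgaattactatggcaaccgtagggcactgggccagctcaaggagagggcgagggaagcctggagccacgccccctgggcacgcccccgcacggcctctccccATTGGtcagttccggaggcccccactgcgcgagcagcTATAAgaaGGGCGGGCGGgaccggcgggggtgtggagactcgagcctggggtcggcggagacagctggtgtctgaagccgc
PLIN4: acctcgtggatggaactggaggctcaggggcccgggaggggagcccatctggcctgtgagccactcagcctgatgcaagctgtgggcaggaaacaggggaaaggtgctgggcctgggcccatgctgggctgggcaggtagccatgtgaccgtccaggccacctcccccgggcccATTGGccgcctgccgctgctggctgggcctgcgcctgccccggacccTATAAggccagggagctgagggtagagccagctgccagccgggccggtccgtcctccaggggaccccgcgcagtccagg
PLIN3: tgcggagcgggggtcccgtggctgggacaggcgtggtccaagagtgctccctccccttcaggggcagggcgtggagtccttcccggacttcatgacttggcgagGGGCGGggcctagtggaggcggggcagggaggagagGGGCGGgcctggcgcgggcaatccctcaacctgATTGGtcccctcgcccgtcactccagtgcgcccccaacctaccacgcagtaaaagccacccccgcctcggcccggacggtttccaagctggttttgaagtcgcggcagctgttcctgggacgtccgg
PNPLA2: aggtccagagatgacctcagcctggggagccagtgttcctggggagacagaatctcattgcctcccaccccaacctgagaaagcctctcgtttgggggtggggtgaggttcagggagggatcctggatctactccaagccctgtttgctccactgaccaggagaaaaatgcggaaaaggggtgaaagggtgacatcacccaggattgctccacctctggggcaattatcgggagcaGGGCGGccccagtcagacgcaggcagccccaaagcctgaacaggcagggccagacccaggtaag
PLIN2: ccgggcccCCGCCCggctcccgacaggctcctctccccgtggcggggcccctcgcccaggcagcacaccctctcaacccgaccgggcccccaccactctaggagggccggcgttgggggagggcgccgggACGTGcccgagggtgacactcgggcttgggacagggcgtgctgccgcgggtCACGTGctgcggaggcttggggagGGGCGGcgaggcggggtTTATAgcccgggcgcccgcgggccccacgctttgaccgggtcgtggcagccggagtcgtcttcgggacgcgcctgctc

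In the PLIN5 window a TATAA begins at position -31, counted from the start, and another at -203. It also held 2 overlapping copies of GGGCGG, from -23 and -19, and CCAAT on the opposite strand from -68. The PLIN4 window held TATAA from -29 and CCAAT on the opposite strand from -76, and no GGGCGG. PLIN2 held TATAA on the opposite strand from -28, and its 3 matches to ACGTG included a pair inside a single CACGTG (the E-box) at -69. PNPLA2 held a single GGGCGG, from -14, and PLIN3 held GGGCGG from -146 and -110. Among all 35116 RefSeq windows, 45.0% held GGGCGG, 34.6% CCAAT, 20.4% TATAA, 21.4% ACGTG and 7.26% CACGTG. The direct repeat 1 element, read by peroxisome proliferator-activated receptors (PPARs) with RXR, was found in 0.0228% of all windows and in none of the members' windows.

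Coordinates are those of GENCODE 29 on GRCh38. PLIN5 (ENSG00000214456) lies on the minus strand of chromosome 19 from 4522531 to 4535224. PLIN4 (ENSG00000167676) lies beside it on the same strand from 4502180 to 4518465, with starts 16.8 kb apart, and PLIN3 (ENSG00000105355) on the same strand from 4838341 to 4867768, with its start 333 kb from that of PLIN5. PLIN2 (ENSG00000147872) is on chromosome 9 from 19108375 to 19149290 and PLIN1 (ENSG00000166819) on chromosome 15 from 89664365 to 89679427, both on the minus strand. The PLIN2 window shown above, from RefSeq, lies inside these coordinates and belongs to a different start from 19149290. DGAT1 (ENSG00000185000) is on the minus strand of chromosome 8 from 144314584 to 144326910, and DGAT2 (ENSG00000062282) on the plus strand of chromosome 11 from 75759512 to 75801535. PNPLA2 (ENSG00000177666, chromosome 11, 818902 to 825573), ABHD5 (ENSG00000011198, chromosome 3, 43690108 to 43734371) and HILPDA (ENSG00000135245, chromosome 7, 128455849 to 128458418) are on plus strands. PLIN2 was the one member with no overlapping gene in this annotation. PLIN5 overlaps AC011498.4 (4528427 to 4540067) on the same strand, where no strand rule can separate their reads. The part of AC011498.4 in the PLIN5 counts was not tested. The sources used here do not name the strand rule of the counting, so reads of PLIN4 and of HDGFL2 on the opposite strand cannot be told apart where they overlap, and likewise DGAT1 and HSF1, and ABHD5 and ANO10.

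PLIN5, a perilipin that binds PNPLA2 and ABHD5 and holds droplets near mitochondria, went from the edge of detection to a clear signal under TSA. Its sums held 15 and 26 UMIs in DMSO replicates 1 and 2, 1648 and 1435 in the TSA replicates, and 14 and 48 in the E6R replicates. On the scale of CPM with the library size scaled by TMM, a correction for composition, these were 3.19 and 4.97 under DMSO, 125 and 125 under TSA, and 0.885 and 1.81 under E6R. The 3 groups did not overlap, with TSA highest, DMSO next and E6R lowest. The fitted log2 fold change of TSA against DMSO was 4.93 (SE 0.37), a 30.4-fold difference.

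The other perilipins did not move together. PLIN3, a perilipin that waits in the cytosol and coats new droplets, stood at 160 and 86.3 CPM under DMSO, 453 and 359 under TSA, and 112 and 85.6 under E6R. Both TSA libraries lay above all 4 others, while DMSO and E6R overlapped. PLIN3 rose 3.30-fold under TSA (log2 fold change 1.72, SE 0.32, edgeR adjusted p = 0.00689). PLIN2, the coat protein that is stable only on droplets, stood at 14.9 and 18.7 CPM under DMSO, 10.03 and 8.71 under TSA, and 33.5 and 33.6 under E6R. The 3 groups again did not overlap, but here TSA was the lowest and E6R the highest. PLIN2 fell by 0.84 on the log2 scale under TSA (SE 0.25, edgeR adjusted p = 0.0397).

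PLIN4, a perilipin of adipocytes and muscle with a long run of amphipathic repeats, was near the limit of these libraries, with 2 and 9 UMIs under DMSO, 41 and 34 under TSA, and 3 and 12 under E6R. That gave 0.425 and 1.72 CPM under DMSO, 3.11 and 2.96 under TSA, and 0.190 and 0.451 under E6R. The TSA libraries were the highest, but the difference from DMSO did not pass the test (log2 fold change 1.47, SE 0.73, edgeR adjusted p = 0.164). HDGFL2, which overlaps PLIN4 on the other strand only from 4502180 to 4502211, rose under TSA in the same libraries. Its part in the PLIN4 counts was not tested. PLIN1, the perilipin of the adipocyte droplet, had 1 to 5 UMIs per library, between 0.126 and 0.383 CPM, and no difference was detectable at this depth.

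**Figure D1:**
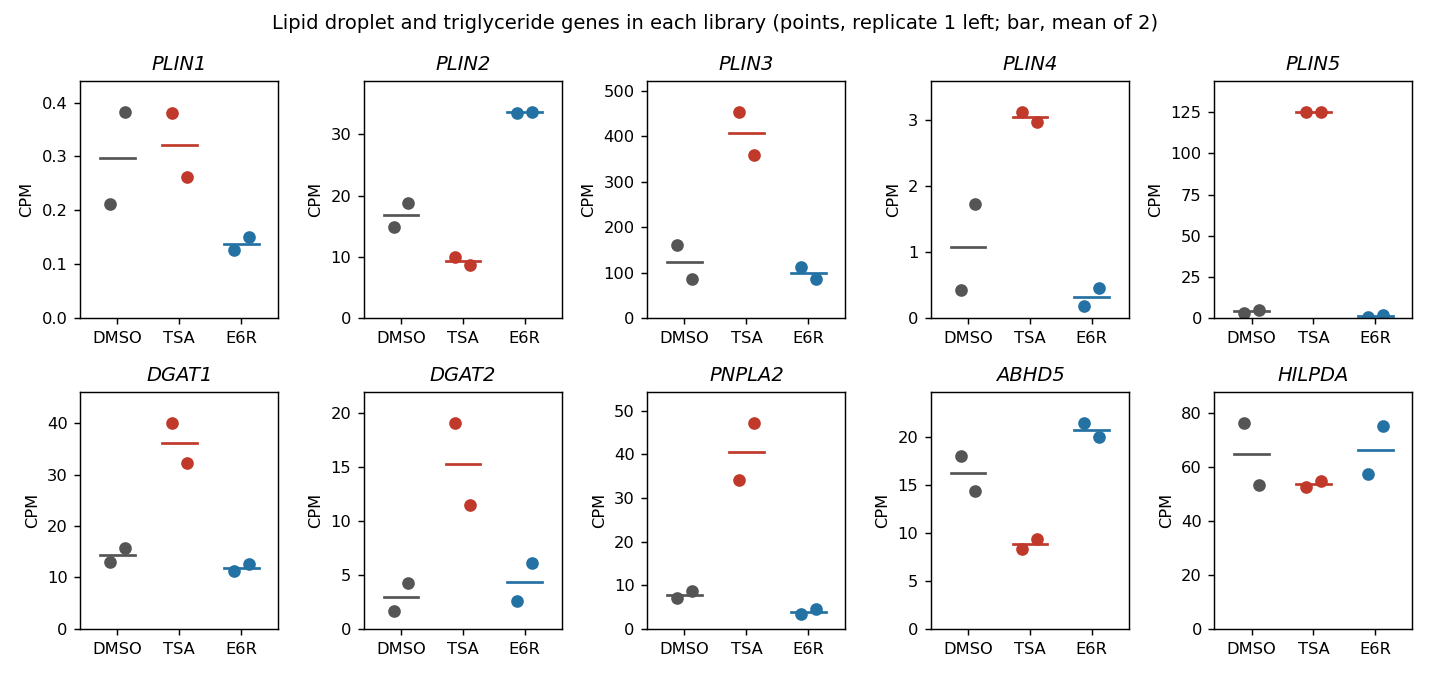
CPM (linear scale from 0, TMM-scaled library size) of the 10 genes in each library, with 1 point per library, replicate 1 on the left, and a bar at the mean of 2. PLIN5 reached 125 CPM in both TSA libraries and at most 4.97 CPM elsewhere, whereas PLIN2 and ABHD5 were lowest under TSA and highest under E6R.

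Both triglyceride-forming enzymes rose under TSA. DGAT1, the acyltransferase of the endoplasmic reticulum, stood at 13.0 and 15.7 CPM under DMSO, 40.1 and 32.3 under TSA, and 11.2 and 12.6 under E6R. The TSA libraries lay above all others (2.53-fold over DMSO, log2 fold change 1.34, SE 0.26, edgeR adjusted p = 0.00801). HSF1, which overlaps DGAT1 on the other strand, had a log2 fold change of -0.27 (edgeR adjusted p = 0.447). DGAT2, an unrelated acyltransferase that also works at the droplet surface, stood at 1.70 and 4.21 CPM under DMSO, 19.1 and 11.5 under TSA, and 2.59 and 6.10 under E6R. Its TSA libraries were again above the rest, with a wide spread within each group (5.12-fold over DMSO, log2 fold change 2.36, SE 0.60, edgeR adjusted p = 0.0219).

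The lipase and its coactivator went in opposite directions. PNPLA2 (adipose triglyceride lipase), which takes the first fatty acid off triglyceride, stood at 7.01 and 8.61 CPM under DMSO, 34.03 and 47.3 under TSA, and 3.35 and 4.63 under E6R. The 3 groups did not overlap, and PNPLA2 rose 5.19-fold under TSA (log2 fold change 2.38, SE 0.32, edgeR adjusted p = 0.00232). ABHD5 (CGI-58), which perilipins hold back from PNPLA2, stood at 18.1 and 14.3 CPM under DMSO, 8.36 and 9.32 under TSA, and 21.5 and 20.02 under E6R. It was lowest in the TSA libraries and fell by 0.87 on the log2 scale against DMSO (SE 0.27, edgeR adjusted p = 0.0443). ANO10 on the opposite strand had a log2 fold change of 0.83 (edgeR adjusted p = 0.0567).

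Among inhibitors of PNPLA2, HILPDA alone could be tested. HILPDA, a small droplet protein induced by hypoxia that inhibits PNPLA2, stood at 76.5 and 53.4 CPM under DMSO, 52.7 and 55.0 under TSA, and 57.6 and 75.1 under E6R. Its groups overlapped in the comparison of TSA with DMSO (log2 fold change -0.27, SE 0.24, edgeR adjusted p = 0.423). G0S2, the other known protein inhibitor of PNPLA2 and no member of the list, had 0 to 8 UMIs per library and no test.

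Of the 9 members other than PLIN5, 6 passed the test in TSA against DMSO, with 4 higher (PLIN3, DGAT1, DGAT2 and PNPLA2) and 2 lower (PLIN2 and ABHD5), where 29.7% of the 16763 genes tested passed it, 16.2% higher and 13.5% lower. Of the 7 tested members other than PLIN5 and PLIN4, PLIN3, DGAT1, DGAT2 and PNPLA2 lay above DMSO in both TSA libraries and PLIN2 and ABHD5 below. Of all genes 36.7% lay above and 34.6% below in this way. With total counts in place of TMM, 5078 genes passed, of which 1717 were higher, against 2720 higher of 4975 with TMM, and the median log2 fold change of all genes moved from -0.01 to -0.32, while each member tested kept its direction. Over the 7 members left without PLIN5, PLIN1 and PLIN4 the median log2 fold change was 1.34, beside -0.01 for all genes. PLIN4 is left out of this median and of the genes counted above or below DMSO. It reached the low-count filter's 0.725 CPM in both TSA libraries and in only 1 of the other 4. It thus entered the test through TSA. With 2 libraries per group these calls rest on single libraries to differing degrees. PNPLA2 passed in each of 19 alternative analyses. PLIN3 missed the threshold without TSA replicate 1 (edgeR adjusted p = 0.0502), as did DGAT1 (0.0729), and DGAT2 missed it without DMSO replicate 1 (0.104), TSA replicate 1 (0.138) or TSA replicate 2 (0.0645). The falls of PLIN2 and ABHD5 missed it without any of the 4 libraries compared, with edgeR adjusted p from 0.0771 to 0.235 for PLIN2 and from 0.0624 to 0.238 for ABHD5. Both also missed it with cells of 300 or more genes (0.0606 for PLIN2 and 0.0537 for ABHD5), with all barcodes (0.118 and 0.0639) and without the 5% of cells with most UMIs (0.0814 and 0.0848). PLIN2 thus passed in 12 of 19 alternatives and ABHD5 in 11. DGAT1 (0.0744) and ABHD5 (0.395) also missed it when every cell was thinned to 1000 UMIs.

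None of the 8 tested members other than PLIN5 passed the test in E6R against DMSO, where the edgeR test called 0 of 16763 genes (0%), 2913 genes (17.4%) had an unadjusted p under 0.05, and DESeq2 called 415 (2.65%). PLIN2 was higher in both E6R libraries than in both DMSO libraries (log2 fold change 0.996, SE 0.25, unadjusted 95% interval 0.42 to 1.57, edgeR adjusted p = 0.205). It passed with DESeq2 (log2 fold change 1.07, adjusted p = 0.0295) and in edgeR without the low-count filter (1.16, adjusted p = 0.0231). PLIN5 was lower in both E6R libraries, with a log2 fold change of -1.55 (SE 0.39), given without a test because the same DMSO values entered its choice. It was lower under E6R also in barcodes too small to be cells, with values given below. In both groups those barcodes held more PLIN5 in CPM than the cells. The cell levels may thus be background, and no lower level of PLIN5 in cells is drawn from them. The differences of PLIN2 and PLIN5 rest on the same DMSO libraries as those of TSA.

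PNPLA2 was lower in both E6R libraries than in both DMSO libraries, with a log2 fold change of -0.96 (interval -1.70 to -0.22, edgeR adjusted p = 0.223). For PLIN4 it was -1.68 (interval -3.53 to 0.17). The intervals were -1.03 to 0.40 for PLIN3, -0.86 to 0.32 for DGAT1, -0.81 to 1.92 for DGAT2, -0.26 to 0.97 for ABHD5 and -0.52 to 0.59 for HILPDA. They span 0, and for DGAT2 they leave room for a change in either direction. Of these 8 genes, PLIN2 and ABHD5 lay above DMSO in both E6R libraries and DGAT1 and PNPLA2 below, while 24.6% of all genes lay above and 22.7% below in this way. The mitochondrial share, 1.55% and 1.51% under E6R and 5.83% and 6.20% under DMSO, moves with these differences, and its part was not tested. With cells of at most 10% mitochondrial UMIs the log2 fold change was 0.94 for PLIN2 and -1.63 for PLIN5.

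Set directly against TSA, the E6R libraries showed 6 members changed, with PLIN2 and ABHD5 higher and PLIN3, DGAT1, DGAT2 and PNPLA2 lower, where 38.2% of all genes passed the test, 18.7% higher and 19.5% lower. The PNPLA2 difference had a log2 fold change of -3.34 (SE 0.32, edgeR adjusted p = 0.00048) and that of PLIN2 was 1.84 (SE 0.25, edgeR adjusted p = 0.00147). PLIN3 differed by -2.04 (SE 0.32) and DGAT1 by -1.60 (SE 0.25), each with edgeR adjusted p = 0.00245. ABHD5 differed by 1.23 (edgeR adjusted p = 0.00892) and DGAT2 by -1.80 (0.0333). HILPDA, at 0.30, did not pass (0.343). PLIN5 differed by -6.48 (SE 0.38) and PLIN4 by -3.15 (SE 0.73), both given without a test, PLIN4 because it passed the low-count filter through the TSA libraries. Doses were not given, so this sets the libraries side by side and does not match the compounds. Without TSA replicate 1 or TSA replicate 2 the edgeR adjusted p was 0.215 and 0.081 for DGAT2, and 0.0801 and 0.0664 for ABHD5, and that of DGAT2 was 0.0784 without E6R replicate 1.

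By the share of cells with a UMI, PLIN5 also stood apart under TSA. Every cell with 1000 or more UMIs was thinned to 1000 UMIs, which kept 1187 and 1682 cells under DMSO, 1852 and 2789 under TSA, and 2199 and 2228 under E6R, and left out 674, 1450, 615, 503, 692 and 1718 shallower cells in the same order. The share of cells with a PLIN5 UMI was then 0.337% and 0.713% under DMSO, 10.1% (exact 95% binomial interval 8.76 to 11.6) and 9.25% (8.20 to 10.4) under TSA, and 0.0910% and 0.269% under E6R. Unthinned shares were 0.806% and 0.766% under DMSO, 28.5% and 23.1% under TSA, and 0.450% and 1.09% under E6R. Intervals and floors here cover counting error only. If all cells of a TSA library had held PLIN5 at the same level per UMI, 32.8% and 26.4% would have had a UMI, somewhat more than were seen. Single TSA cells held up to 23 and 28 PLIN5 UMIs, and the 1% of cells with most UMIs carried 12.4% and 19.9% of the PLIN5 UMIs, beside 11.01% and 15.6% of all UMIs.

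The line holds no cell type that should lack PLIN5, so the level outside cells was read from the barcodes with fewer than 500 genes. There PLIN5 stood at 26.2 and 9.20 plain CPM under DMSO, 118 and 106 under TSA, and 3.93 and 5.49 under E6R. Against the cells of the same library this was 7.34 and 1.70 times the level under DMSO, 1.02 and 0.988 times under TSA, and 4.43 and 2.99 times under E6R. Under DMSO and E6R the cells thus held less PLIN5 in CPM than the small barcodes, and their shares of cells with a UMI are read as background. Under TSA the cells and the small barcodes held like levels. This comparison therefore cannot tell PLIN5 made in a TSA cell from PLIN5 captured from outside it. The part of RNA outside cells in the TSA shares was not tested.

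PLIN3 was the member seen in most thinned TSA cells, in 30.7% and 24.6% of them, against 16.0% and 8.26% under DMSO and 11.3% and 7.90% under E6R. PNPLA2 was seen in 3.02% and 4.16% of TSA cells, 0.842% and 1.25% of DMSO cells, and 0.318% and 0.494% of E6R cells. PLIN2 was seen in 0.810% and 0.932% of TSA cells, 2.11% and 2.02% of DMSO cells, and 2.91% and 3.19% of E6R cells. For these 3 genes the order of the groups followed that of their sums. Among TSA cells with a PLIN5 UMI (187 and 258), 31.0% and 24.8% also had a PLIN3 UMI, beside 30.7% and 24.6% of the cells without PLIN5. For PNPLA2 these shares were 4.81% and 3.88% beside 2.82% and 4.19%, so the libraries did not point the same way.

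**Figure D2:**
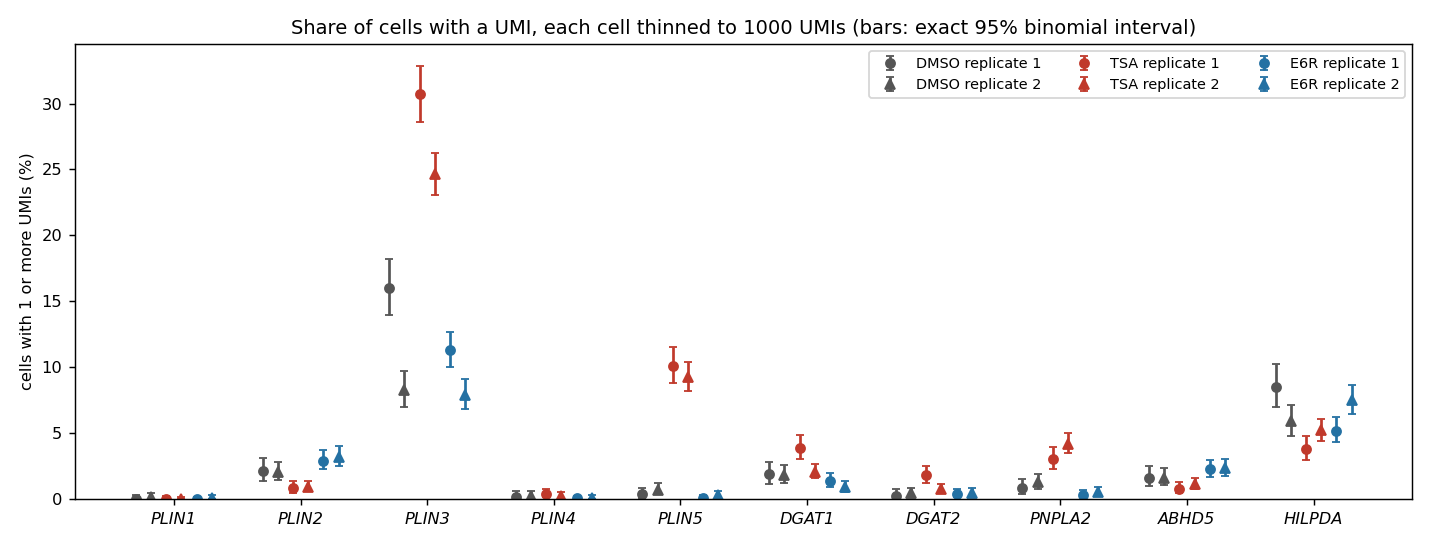
Percent of cells with 1 or more UMIs of each gene, after thinning every cell to 1000 UMIs, with a point per library and bars for the exact 95% binomial interval. The TSA points stood highest for PLIN5 (10.1% and 9.25%) and PLIN3 (30.7% and 24.6%), and lowest for PLIN2 (0.810% and 0.932%).

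The genes whose levels were most like PLIN5 were BAIAP3, STAC2, TCN2, CFD and AL356804.1. Likeness was the Euclidean distance between log2 CPM profiles (prior count 2), each centred on its own mean, over the 6 libraries and among 7515 genes with a mean of at least 20 CPM. BAIAP3, a C2-domain protein of dense-core vesicle traffic, was nearest, with 2.34 and 7.46 CPM under DMSO, 111 and 91.3 under TSA, and 1.01 and 2.67 under E6R. CFD, the complement protease adipsin that adipocytes secrete, stood at a distance of 1.65 with 1.91 and 6.31 CPM under DMSO, 55.6 and 63.3 under TSA, and 0.442 and 2.82 under E6R. TCN2, the plasma carrier of vitamin B12, was at 0.637 and 1.91 CPM under DMSO, 98.7 and 95.9 under TSA, and 0.948 and 1.43 under E6R. These 5 were chosen for this pattern, so no test is given. TNNI3, the cardiac inhibitory troponin and one of the 7 muscle markers, rose from 2.12 and 7.08 CPM under DMSO to 52.3 and 53.0 under TSA (log2 fold change 3.50, edgeR adjusted p = 0.00445), while the cardiac myosins MYH6 and MYH7 had 0 to 4 UMIs in each library. TNNI3 made up most of the summed level of the 7 muscle markers under TSA (58.9 and 56.3 CPM, against 6.58 to 21.5 CPM in the other libraries). TNNT2, the cardiac troponin T of the same list, stood at 18.3 and 1.91 CPM under DMSO and 2.58 and 1.57 under TSA (log2 fold change -2.26, edgeR adjusted p = 0.167). The part of muscle markers in the PLIN5 values was not tested.

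Around PLIN5, 31 genes of GENCODE 29 started within 250 kb of its start and 19 of them were tested. Under TSA 5 rose and none fell (26.3%), where 29.7% of all genes passed, 16.2% higher and 13.5% lower. Of the 19, PLIN4 and SEMA6B passed the low-count filter through the TSA libraries, so no median is given. On the side towards PLIN4, HDGFL2 rose from 59.7 and 60.2 CPM to 150 and 210 (log2 fold change 1.59, SE 0.23, edgeR adjusted p = 0.00275) and AC011498.1 did not pass (-1.04, edgeR adjusted p = 0.318). On the other side LRG1, a secreted glycoprotein, had a log2 fold change of 1.38 (edgeR adjusted p = 0.168) and SEMA6B, a semaphorin, 2.00 (0.0748). TNFAIP8L1 rose from 62.5 and 26.6 CPM to 149 and 158 (log2 fold change 1.79, SE 0.37, edgeR adjusted p = 0.011). The other genes that rose were STAP2, MPND and MIR7-3HG, named after their values were seen. MIR7-3HG, the host gene of a miR-7 hairpin, had 0.212 and 9.56 CPM in the DMSO libraries, 170 and 193 under TSA, and 0.442 and 8.35 under E6R (log2 fold change 5.18, SE 1.23, edgeR adjusted p = 0.0174). In E6R against DMSO none of the 19 passed.

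**Figure D3:**
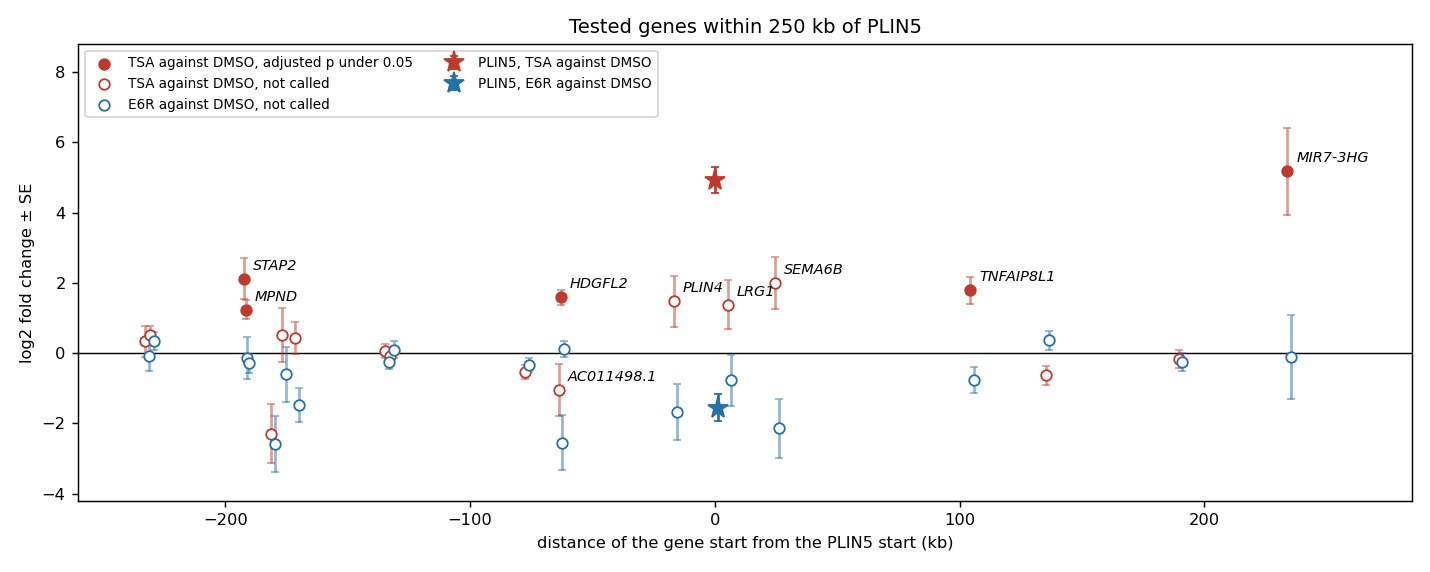
Log2 fold change ± SE of the tested genes within 250 kb of the PLIN5 start, by distance in kb along the chromosome, in TSA (red) and E6R (blue, drawn slightly to the right) against DMSO, with PLIN5 as stars and filled points at adjusted p under 0.05. Filled points were STAP2, MPND, HDGFL2, TNFAIP8L1 and MIR7-3HG, and the nearest tested gene on each side of PLIN5, PLIN4 and LRG1, was open.

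Genes of the wider pathway did not move as one under TSA. Of all 16763 genes tested, 29.7% passed in this comparison, 16.2% higher and 13.5% lower. Of 13 tested genes of glycerolipid synthesis upstream of the DGAT step, 1 fell (7.69%) and none rose, with a median log2 fold change of 0.15. The one that fell was AGPAT3, which makes phosphatidic acid, from 93.8 to 34.8 CPM (log2 fold change -1.43, SE 0.23, edgeR adjusted p = 0.0043). None of the 7 tested genes of lipolysis and lipophagy passed, and LIPE (hormone-sensitive lipase), which acts after PNPLA2, was at a mean of 0.871 CPM under DMSO and 2.40 under TSA (edgeR adjusted p = 0.231). Of 17 tested genes of droplet formation and other droplet proteins, 2 rose and 3 fell, which is 29.4% and near the share of all genes. LSS (lanosterol synthase) rose from 38.7 to 96.7 CPM (log2 fold change 1.32, SE 0.20, edgeR adjusted p = 0.00311). METTL7A fell from 249.8 to 34.003 CPM (log2 fold change -2.88, SE 0.46, edgeR adjusted p = 0.00416) and HSD17B11 from 54.6 to 23.1 (-1.24, SE 0.23, 0.00671), both of them enzymes found on droplets.

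Supply and use of fatty acids were mixed as well. Of 13 tested genes of fatty acid uptake and activation, 3 rose and 2 fell (38.5%, beside 29.7% of all genes). The acyl-CoA synthetases ACSL1 and ACSL3 rose, ACSL1 from 25.2 to 67.7 CPM (log2 fold change 1.42, SE 0.27, edgeR adjusted p = 0.0073) and ACSL3, which sits on nascent droplets, from 103 to 274 (1.41, SE 0.21, 0.00334). Of 18 tested genes of fatty acid oxidation, 4 rose and 2 fell (33.3%). CPT2, the carnitine palmitoyltransferase of the inner mitochondrial membrane, rose from 29.9 to 83.3 CPM (log2 fold change 1.48, edgeR adjusted p = 0.0043), HADHB from 74.0 to 169 (1.19, 0.00843), and ACAA2, the mitochondrial thiolase, fell from 81.9 to 40.5 (-1.02, 0.00606). Of 4 tested genes of sterol ester metabolism 1 fell (25%), SOAT2, which had a mean of 1.46 CPM under DMSO.

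Among receptors that govern perilipin genes, PPARD rose under TSA. Its mean was 16.5 ± 3.76 CPM under DMSO (SD, n = 2), 80.3 ± 20.6 under TSA and 11.4 ± 0.515 under E6R, and the TSA libraries lay above the rest (log2 fold change over DMSO 2.28, SE 0.28, edgeR adjusted p = 0.00173). PPARA, which drives fatty acid oxidation, averaged 22.3 CPM under DMSO and 34.6 under TSA without passing (log2 fold change 0.63, edgeR adjusted p = 0.0934). PPARG, the adipocyte receptor, averaged 2.66 and 1.18 CPM (-1.16, 0.172). Of 7 tested genes of this list 1 rose and 1 fell (28.6%, near the 29.7% of all genes). The one that fell was RXRA, the partner of the PPARs, named after its value was seen (log2 fold change -1.64, edgeR adjusted p = 0.00835). Of 14 tested genes of the hypoxia response 3 rose and 1 fell, again 28.6%, with a median log2 fold change of 0.68. BNIP3, a mitophagy receptor, rose from 73.2 to 193 CPM (log2 fold change 1.40, edgeR adjusted p = 0.00791), BNIP3L had a log2 fold change of 1.07 (0.0428), and KDM3A, a histone demethylase, one of 1.10 (0.0379).

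No gene of these 8 lists passed in E6R against DMSO. PPARD had a log2 fold change of -0.53 there (edgeR adjusted p = 0.352), PPARA -0.45 (0.383), PPARG -0.22 (0.87) and LIPE 0.70 (0.701). In E6R against TSA, which shares its TSA libraries with the comparison above, 38.2% of all genes passed, 18.7% higher and 19.5% lower. The counts were 1 higher of 13 for glycerolipid synthesis, 1 lower of 7 for lipolysis and 1 higher of 4 for sterol esters. They were 4 higher and 5 lower of 17 for droplet proteins, 3 and 3 of 13 for uptake and 3 and 6 of 18 for oxidation. For PPAR genes they were 1 and 2 of 7, and for hypoxia 2 and 3 of 14. PPARD differed by a log2 fold change of -2.82 (edgeR adjusted p = 0.000516), PPARA by -1.08 (0.011), METTL7A by 3.24 (0.00177) and CPT2 by -2.11 (0.000788). Higher under E6R than under TSA were also AGPAT3 (log2 fold change 1.23), HSD17B11 (2.03), ACAA2 (1.42), FABP5, a fatty acid carrier (1.48), ACADM, a medium-chain dehydrogenase (1.12), and HIF1A and EGLN1, the hypoxia factor and a hydroxylase that marks it for breakdown (1.57 and 1.26). LSS (-1.60), ACSL3 (-1.01) and BNIP3L (-1.40) were lower. These 10 genes had edgeR adjusted p from 0.000774 to 0.0119.

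**Figure D4:**
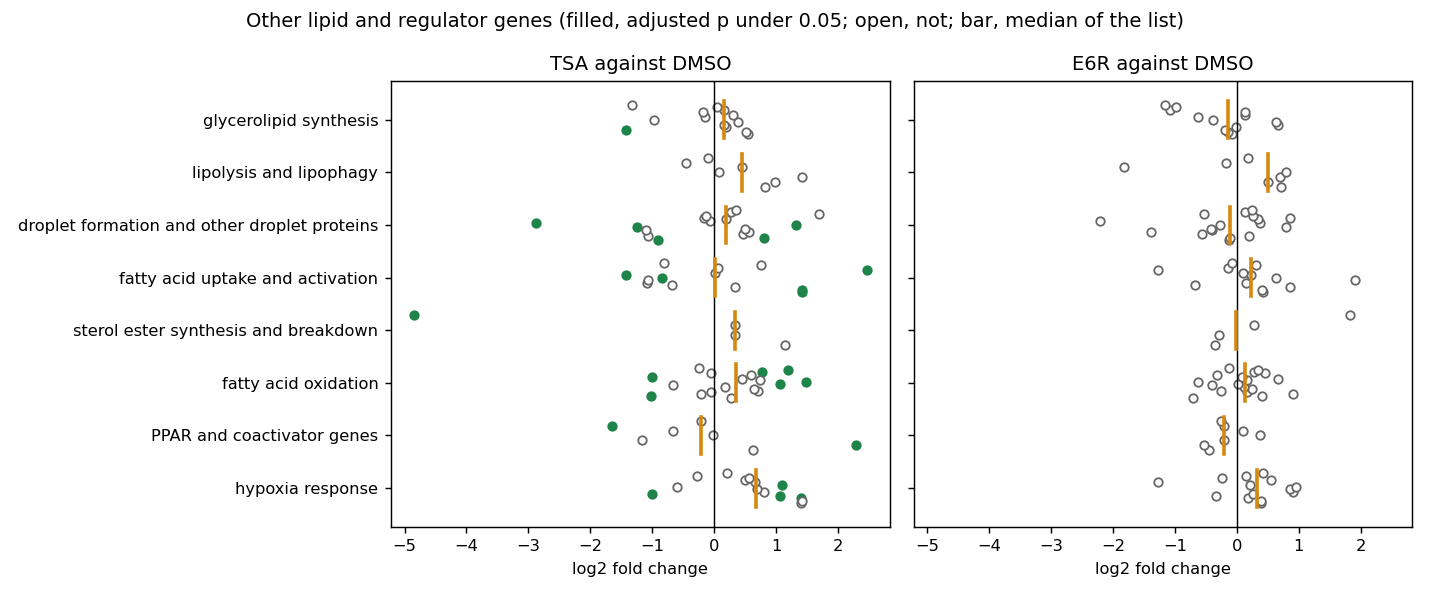
Log2 fold change of each tested gene of 8 lists around the droplet pathway in TSA and in E6R against DMSO, with filled points at adjusted p under 0.05 and a bar at the list's median. Filled points lay on both sides of 0 under TSA in 5 of the lists, and none was filled under E6R.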

How the data were processed

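The authors deposited matrices of whole-number UMI counts per gene and barcode, not normalized. Per the submitters' processing notes, STARsolo 2.7.9a and GRCh38 were used. The sources used here do not name the annotation, strand rule or choice of barcodes. Cells are not replicates, so each library entered as the sum of its cells, and the 6 sums were tested with edgeR 4.0.16 in R 4.3.3 (quasi-likelihood test, TMM scaling, filterByExpr, all 6 libraries in one fit, Benjamini-Hochberg adjustment over 16763 genes at 0.05). DESeq2 1.42.0, other scalings, filters, thinning and leaving out each library were alternatives. The fit was tested on simulated data. Doublets were not called, and an alternative dropped the largest 5% of cells. Printed CPM had TMM-scaled library sizes, except those of small barcodes. Standard errors came from the F statistic.

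The members and the gene lists were chosen with earlier results of these data known. All 10 members were named, with PPARA, PPARD, PPARG, G0S2 and LIPE. From each list up to 3 genes per contrast were named, those that changed most among genes that passed, averaged 20 CPM or more and had groups that did not overlap. The 5 genes most like PLIN5 and its 3 nearest tested neighbours on each side were also named. Of the genes this rule names, 1 is not reported here.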

Additional observations from a re-analysis of the deposited data

Results flagged for a closer look

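Barcodes with fewer than 500 genes entered none of the main tests. In plain CPM of those barcodes PLIN3, PLIN4, PLIN5, DGAT1 and PNPLA2 stood above both DMSO libraries in both TSA libraries. PLIN5 stood at 106.4 and 117.6 CPM in the TSA libraries against 9.196 and 26.19 under DMSO. PLIN3 stood at 251.7 and 346.7 CPM under TSA against 82.76 and 165.6, PNPLA2 at 20.52 and 33.16 against 2.664 and 9.483, and DGAT1 at 22.74 and 33.85 against 13.79 and 19.98. PLIN4 stood at 3.79 and 4.787 CPM under TSA against 0.8879 and 2.012. PLIN2 was the one such gene under E6R, with 25.76 and 27.43 CPM against 11.99 and 17.82 under DMSO. In the same barcodes 17.8% of the 16763 genes tested in cells lay above both DMSO libraries in both TSA libraries, and 18% in both E6R libraries. PLIN5 was chosen by its rise under TSA and PLIN4 passed the low-count filter through TSA, so neither counts beside these shares. DGAT2, higher in the cells of both TSA libraries, overlapped here. It stood at 18.8 and 6.32 CPM under TSA against 3.995 and 7.76 under DMSO. PLIN2 and ABHD5 lay below both DMSO libraries in the small barcodes of both TSA libraries. PLIN2 had 8.55 and 7.26 CPM under TSA against 11.99 and 17.82, and ABHD5 9.23 and 4.42 against 13.76 and 18.39. The share of all genes that lay below in these barcodes was not counted. Each gene given as above DMSO was also higher in the cells of both libraries of that treatment than under DMSO.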

How the results depend on the processing

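Leaving out single libraries in TSA against DMSO gave 1 to 6 members (1 without TSA replicate 1, 3 without DMSO replicate 1 or TSA replicate 2) and 1416 to 6028 genes. In E6R against TSA it gave 4 to 7 members, PLIN4 included, and 2628 to 6385 genes, and in E6R against DMSO 0 members and 0 to 3 genes. Where 1 library was left in a group, it was assumed to vary like the others. PLIN5 is left out of all these counts of members. In E6R against DMSO 1 member (PLIN2) and 1095 genes passed without the low-count filter, 1 member (PLIN2) and 415 genes with DESeq2, and 1 gene with all barcodes and 1 without shared barcodes, the last of these chosen after seeing the data. Thinning gave 4139 genes in E6R against TSA.

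Some small differences changed sign, given here as log2 fold changes. In E6R against DMSO HILPDA had -0.10 with total counts, -0.17 without DMSO replicate 2, -0.13 without E6R replicate 2, -0.0086 with only these groups, -0.022 at 10% mitochondrial UMIs, -0.030 without the largest cells and -0.21 when thinned, and -0.17 to 0.45 when single libraries were left out. PLIN3 ranged from -0.65 to 0.33 (without DMSO replicate 1) and DGAT2 from -0.16 (without E6R replicate 2) to 1.40 there. In TSA against DMSO HILPDA ranged from -0.58 to 0.053 (without DMSO replicate 1). The causes were not tested. Replicate numbers appear in the titles only. Deviations of same-numbered libraries correlated at 0.242 (DMSO and TSA), 0.563 (DMSO and E6R) and 0.165 (TSA and E6R) over 7515 genes, and a replicate block gave 6047, 19 and 7567 genes in the 3 comparisons and changed no member's call. PLIN1 and PLIN4 are limited by depth, and shares of cells with a UMI depend on the thinning.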
